A study of Mus musculus with 12 samples.

Results

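Pericytes and vascular smooth muscle cells, together called mural cells, were followed through 10 genes in RNA from the injured mouse cortex. The genes were a given set of known mural markers, and each had 1 row, matched by gene symbol, among the 20776 genes of the tables. The pericyte genes were Pdgfrb, Rgs5, Kcnj8, Abcc9, Vtn and Higd1b, and the smooth muscle genes were Acta2, Tagln, Myh11 and Des. A square of cortex with 3 mm sides around the wound was dissociated 12 h after injury and sorted on antibody-coated plates. Cells held by an Acsa-2 plate formed the astrocyte fraction. Cells held by a plate with secondary antibody alone and by a CD45 plate formed the immune fraction. The 4 groups were astrocyte Sema4B-/- (libraries 8, 10 and 12), astrocyte Sema4B+/- (2, 4 and 6), immune Sema4B-/- (7, 9 and 11) and immune Sema4B+/- (1, 3 and 5). Every group was injured, and the heterozygotes also carried 1 altered copy of Sema4B, so neither uninjured nor wild-type tissue entered any comparison. The labels give no age or allele, and do not say whether a library came from 1 animal or whether both fractions came from the same animals. P-values therefore measure the spread between these libraries.

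Mural cells wrap the endothelial tube. Endothelium releases PDGF-B, which holds pericytes on capillaries through the receptor encoded by Pdgfrb, while arterioles are ringed by smooth muscle that contracts through actin and myosin. In the brain, pericytes maintain the blood-brain barrier. Neither plate was directed at mural cells. Which cells gave the transcripts of the 10 genes was not tested. In bulk RNA, fewer cells of a type and less RNA per cell cannot be told apart.

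Total reads were 13530229 to 15993564 in the astrocyte and 11111965 to 15135960 in the immune libraries. Levels are given as CPM, read counts relative to library totals scaled by TMM over all 12 libraries, and 3 reads, the limit that a count of 0 allows, stood at 0.174 to 0.255 CPM. That limit covers counting error only. Summed astrocyte markers (9 genes) reached 29847 to 45655 CPM in the astrocyte and 561 to 1303 CPM in the immune libraries. Summed microglia markers (10 genes) reached 509 to 900.4 CPM in the astrocyte and 8496 to 20132 CPM in the immune libraries. Sema4b reads remained in the knockouts, at 27.7 to 58.3 CPM in astrocyte Sema4B-/- against 61.0 to 111 CPM in astrocyte Sema4B+/- libraries (edgeR adjusted p = 0.930). In the immune fraction Sema4b had 1.16 to 5.38 CPM in Sema4B-/- against 6.06 to 8.83 CPM in Sema4B+/- libraries (edgeR adjusted p = 0.270). Knockouts lay below heterozygotes without overlap in both fractions.

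The promoters of 4 genes are shown for the range of their differences between fractions. Acta2 was lower in the astrocyte than in the immune fraction, Rgs5 and Abcc9 were higher, and Des lay between. The fractions overlapped for Acta2 in Sema4B+/- and for Des in Sema4B-/- libraries. Each window runs from 250 bases before to 50 bases after the RefSeq start on GRCm38.p6, on the gene's own strand. RefSeq windows were found for 6 of the 10 genes. Capitals mark CArG-like boxes, the serum response factor element with 1 C or G allowed in its A/T core, and the TEAD element MCAT (CATTCC), both searched on both strands. The CArG-like form was added after the Acta2 window was seen.
Acta2, chr19:34255324-34255623, minus strand: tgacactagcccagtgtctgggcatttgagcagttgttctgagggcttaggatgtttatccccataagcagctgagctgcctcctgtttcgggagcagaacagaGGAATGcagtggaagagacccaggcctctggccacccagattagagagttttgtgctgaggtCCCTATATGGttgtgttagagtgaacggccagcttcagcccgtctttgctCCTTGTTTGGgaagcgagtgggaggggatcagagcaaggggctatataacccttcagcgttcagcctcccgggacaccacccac
Des, chr1:75360042-75360341, plus strand: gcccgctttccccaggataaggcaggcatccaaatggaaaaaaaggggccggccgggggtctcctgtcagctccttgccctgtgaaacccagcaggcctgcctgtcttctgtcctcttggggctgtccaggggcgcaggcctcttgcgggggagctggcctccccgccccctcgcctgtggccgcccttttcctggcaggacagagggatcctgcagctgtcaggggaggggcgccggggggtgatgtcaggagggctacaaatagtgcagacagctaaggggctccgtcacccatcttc
Rgs5, chr1:169655251-169655550, plus strand: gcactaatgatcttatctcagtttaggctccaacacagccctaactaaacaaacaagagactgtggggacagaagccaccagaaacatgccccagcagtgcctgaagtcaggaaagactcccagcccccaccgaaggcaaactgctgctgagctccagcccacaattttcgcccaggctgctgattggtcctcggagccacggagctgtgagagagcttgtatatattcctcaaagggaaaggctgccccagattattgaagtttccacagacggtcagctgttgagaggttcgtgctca
Abcc9, chr6:142702225-142702524, minus strand: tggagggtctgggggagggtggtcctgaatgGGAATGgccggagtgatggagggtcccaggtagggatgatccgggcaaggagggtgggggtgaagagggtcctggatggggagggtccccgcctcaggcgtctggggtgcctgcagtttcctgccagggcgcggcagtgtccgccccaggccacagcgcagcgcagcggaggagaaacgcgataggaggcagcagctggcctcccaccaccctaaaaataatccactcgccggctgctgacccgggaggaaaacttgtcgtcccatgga
The Acta2 window held a pair of CArG-like boxes and 1 MCAT element, and the Abcc9 window held 1 MCAT element. The Des and Rgs5 windows held no match to these letters. Of all 32851 promoter windows of this length, 9.98% held a CArG-like box and 14.7% an MCAT element. Among other contractile genes, 3 of 16 windows held a CArG-like box. So did 3 of 18 windows of other pericyte genes, 4 of 18 of endothelial markers and 0 of 6 of neuron markers. Further shares were 3 of 8 for neutrophil, 2 of 10 for astrocyte, 1 of 9 for fibroblast and 1 of 8 for microglia markers. Border macrophage and oligodendrocyte markers had 1 of 7 each, and red blood cell markers 0 of 5. Mural recruitment signals had 4 of 16, and channel and family paralogs 3 of 11. The element was thus not particular to contractile or vessel genes. The strict CArG box, with only A or T in its core, was also searched. It was in 0 of 4 pericyte and 0 of 2 smooth muscle member windows. Among other contractile genes 2 of 16 windows held it, and 1.63% of all windows. The RBPJ element (TGGGAA), not marked above, was searched as well. It was in 3 of 4 pericyte and 1 of 2 smooth muscle member windows, and in 25.6% of all windows. Among other pericyte genes 4 of 18 windows held it, and 5 of 16 among other contractile genes. A letter match is a description and not a binding site.

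Between the astrocyte and the immune fraction the pericyte members stood together, while the smooth muscle members were mixed. All 6 pericyte genes were higher in the astrocyte fraction in both genotypes, though Higd1b was too low to be tested within the immune fraction. Higd1b passed the filter on low counts through the astrocyte libraries, so it is no support for the shared direction. Acta2 was lower in the astrocyte fraction in both genotypes. Tagln and Myh11 passed as lower in Sema4B-/- libraries, and Des passed as higher in Sema4B+/- libraries. By edgeR's quasi-likelihood test 6 members were higher and 3 lower in Sema4B-/- libraries, and 7 were higher and 1 lower in Sema4B+/- libraries. The counts of higher members include Higd1b. Much of the transcriptome differed: of 16880 genes tested, 29.0% were higher and 30.7% lower in Sema4B-/- libraries, and 30.0% were higher and 30.3% lower in Sema4B+/- libraries. Libraries of both fractions entered the fit as unrelated samples, and the labels leave their kinship unsaid.

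**Figure D1:**
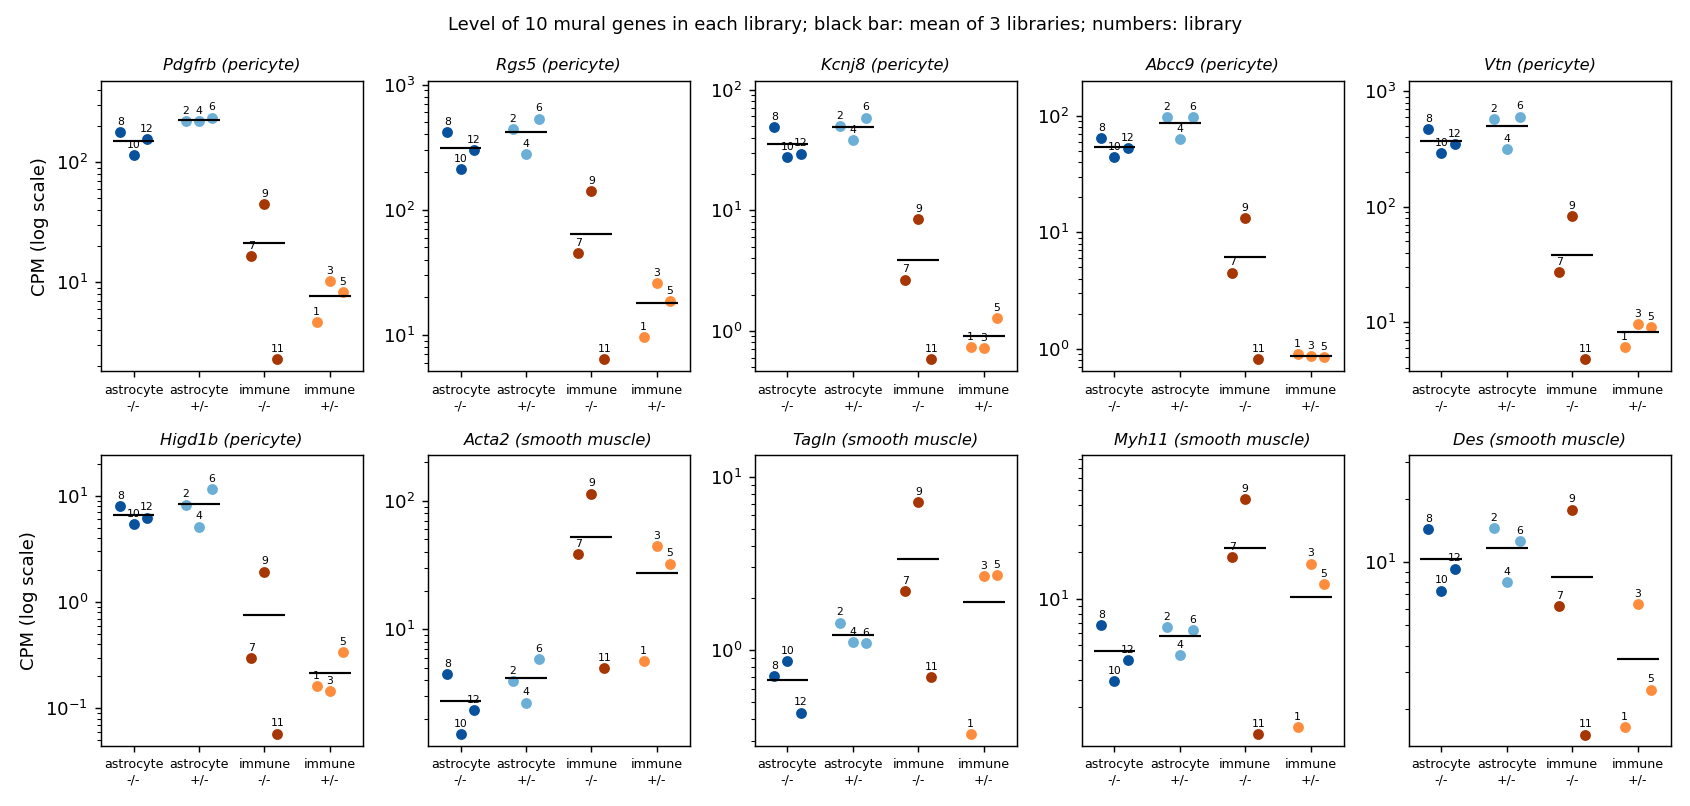
Level of each gene in each library, in CPM on a log axis, for the astrocyte Sema4B-/-, astrocyte Sema4B+/-, immune Sema4B-/- and immune Sema4B+/- groups. Points are libraries; among the 6 immune libraries, library 9 is the highest for all 10 genes and library 11 the lowest for 9.

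Pdgfrb (ENSMUSG00000024620, GRCm38 chromosome 18, 61045150 to 61085061), the receptor for PDGF-B, had 179, 115 and 156 CPM in astrocyte Sema4B-/- libraries 8, 10 and 12, against 16.6, 44.7 and 2.26 CPM in immune Sema4B-/- libraries 7, 9 and 11. In astrocyte Sema4B+/- libraries 2, 4 and 6 it had 221, 221 and 236 CPM, against 4.66, 10.1 and 8.25 CPM in immune Sema4B+/- libraries 1, 3 and 5. Every astrocyte library lay above every immune one. The log2 difference of astrocyte over immune was 2.83 ± 0.65 (SE) in Sema4B-/- (edgeR adjusted p = 0.00204) and 4.88 ± 0.72 in Sema4B+/- libraries (edgeR adjusted p = 5.34e-05).

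Rgs5, a classic pericyte marker, encodes a brake on G protein signalling. It had 419, 212 and 298 CPM in astrocyte Sema4B-/- libraries, against 45, 141 and 6.38 CPM in immune Sema4B-/- libraries. The heterozygotes had 441, 279.7 and 536 CPM in the astrocyte, against 9.57, 25.9 and 18.6 CPM in the immune fraction. The fractions did not overlap in either genotype, and immune library 9 came nearest to the astrocyte values. The log2 difference was 2.27 ± 0.73 in Sema4B-/- (edgeR adjusted p = 0.0156) and 4.53 ± 0.81 in Sema4B+/- libraries (edgeR adjusted p = 0.000269). For the knockouts the edgeR adjusted p was 0.0596 without immune library 7 and 0.0540 in a fit of those 6 libraries alone.

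Kcnj8 and Abcc9 encode the pore and the sulfonylurea receptor of the ATP-sensitive potassium channel of pericytes and smooth muscle. They lie beside each other on chromosome 6 (GRCm38, Kcnj8 142564837 to 142571614 and Abcc9 142587862 to 142702315), 16247 bases apart. Abcc9 had 63.8, 44.2 and 52.5 CPM in astrocyte Sema4B-/- libraries, against 4.49, 13.3 and 0.812 CPM in immune Sema4B-/- libraries. The heterozygotes had 96.8, 63.4 and 97.6 CPM in the astrocyte, against 0.899, 0.866 and 0.850 CPM in the immune fraction. These immune heterozygotes held 10 to 12 Abcc9 reads each and hardly differed. Abcc9 had the widest gap of the 10 genes in Sema4B+/- libraries, a log2 difference of 6.61 ± 0.73 (edgeR adjusted p = 3.52e-06), beside 3.13 ± 0.57 in Sema4B-/- libraries (edgeR adjusted p = 0.000387).

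Kcnj8 had 49.2, 27.7 and 29.6 CPM in astrocyte Sema4B-/- libraries, against 2.66, 8.43 and 0.580 CPM in immune Sema4B-/- libraries. The heterozygotes had 49.6, 38.2 and 58.6 CPM in the astrocyte, against 0.736, 0.722 and 1.28 CPM in the immune fraction. The log2 difference was 3.21 ± 0.58 in Sema4B-/- (edgeR adjusted p = 0.000330) and 5.74 ± 0.70 in Sema4B+/- libraries (edgeR adjusted p = 8.58e-06). Reads of Abcc9 per read of Kcnj8 were 1.30 to 1.95 over the 6 astrocyte libraries and 0.667 to 1.69 over the 6 immune libraries. In the 4 immune libraries other than 7 and 9 each gene had 9 to 15 reads.

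Vtn, encoding the adhesive plasma and matrix protein vitronectin, had 474, 289.7 and 348 CPM in astrocyte Sema4B-/- libraries, against 27.2, 83.2 and 4.76 CPM in immune Sema4B-/- libraries. The heterozygotes had 571, 318 and 603 CPM in the astrocyte, against 6.05, 9.60 and 9.10 CPM in the immune fraction. The log2 difference was 3.27 ± 0.68 in Sema4B-/- (edgeR adjusted p = 0.00103) and 5.91 ± 0.78 in Sema4B+/- libraries (edgeR adjusted p = 1.92e-05). Higd1b, a gene of the HIG1 domain family, was the faintest pericyte gene in CPM. It averaged 6.57 ± 1.31 CPM in astrocyte Sema4B-/- and 8.30 ± 3.19 CPM in astrocyte Sema4B+/- libraries (SD, n = 3 each). Immune Sema4B-/- libraries held 1 to 28 reads of it and immune Sema4B+/- libraries 2 to 4. Its log2 difference was 3.16 ± 0.65 in Sema4B-/- (edgeR adjusted p = 0.000965) and 5.23 ± 0.80 in Sema4B+/- libraries (edgeR adjusted p = 7.03e-05). With so few immune reads the size of that difference is uncertain.

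Acta2, the gene of smooth muscle alpha-actin (ENSMUSG00000035783, GRCm38 chromosome 19, 34241090 to 34255590), ran the other way. It had 4.46, 1.53 and 2.32 CPM in astrocyte Sema4B-/- libraries, against 38.4, 114 and 4.99 CPM in immune Sema4B-/- libraries. The heterozygotes had 3.92, 2.68 and 5.86 CPM in the astrocyte, against 5.64, 44.3 and 32.5 CPM in the immune fraction. The fractions stood apart in Sema4B-/- but overlapped in Sema4B+/- libraries, where immune library 1 lay among the astrocyte values. The log2 difference was -4.24 ± 0.96 in Sema4B-/- (edgeR adjusted p = 0.00191) and -2.72 ± 0.90 in Sema4B+/- libraries (edgeR adjusted p = 0.0186). The heterozygote call was lost without astrocyte library 2 (edgeR adjusted p = 0.0561), astrocyte library 4 (0.0706) or immune library 3 (0.0696), and by limma-voom (0.123).

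Myh11, the smooth muscle myosin heavy chain gene, had 6.73, 2.92 and 4.00 CPM in astrocyte Sema4B-/- libraries, against 18.5, 44.0 and 1.33 CPM in immune Sema4B-/- libraries. The heterozygotes had 6.57, 4.31 and 6.27 CPM in the astrocyte, against 1.47, 16.8 and 12.3 CPM in the immune fraction. In each genotype 1 immune library, 11 or 1, lay below all astrocyte libraries, and the other immune libraries lay above them. The log2 difference was -2.22 ± 0.90 in Sema4B-/- (edgeR adjusted p = 0.0465) and -0.84 ± 0.88 in Sema4B+/- libraries (edgeR adjusted p = 0.431). The knockout call was lost in 8 of the 12 fits that left out 1 library, those without astrocyte library 2, 6, 8, 10 or 12 or immune library 5, 7 or 9, with edgeR adjusted p of 0.0571 to 0.290. It was also lost with no filter (0.0653), by DESeq2 (0.0670), by limma-voom (0.383) and in a fit of the 6 knockout libraries alone (0.0715). Without library 9 the log2 difference was -1.12.

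Tagln, whose product transgelin binds actin filaments in smooth muscle, had 6 to 13 reads in astrocyte Sema4B-/- against 12 to 103 reads in immune Sema4B-/- libraries. The heterozygotes had 15 to 18 reads in the astrocyte against 4 to 37 reads in the immune fraction. Its log2 difference was -2.28 ± 0.78 in Sema4B-/- (edgeR adjusted p = 0.0219) and -0.65 ± 0.76 in Sema4B+/- libraries (edgeR adjusted p = 0.480). The knockout call was lost without astrocyte library 8 or 12 or immune library 9, with edgeR adjusted p of 0.0547 to 0.204, and by limma-voom (0.126). Without library 9 the log2 difference was -1.08. Tagln overlaps Pcsk7 and the antisense gene Gm48529 on the opposite strand, and the strand setting of the counting is not given in the sources used here, so its low counts are uncertain.

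Des encodes desmin, an intermediate filament protein of muscle that pericytes also make. It had 14.3, 7.31 and 9.30 CPM in astrocyte Sema4B-/- libraries, against 6.15, 17.8 and 1.51 CPM in immune Sema4B-/- libraries. The heterozygotes had 14.5, 8.03 and 12.6 CPM in the astrocyte, against 1.64, 6.28 and 2.47 CPM in the immune fraction. The fractions overlapped in Sema4B-/- but not in Sema4B+/- libraries. The log2 difference was 0.29 ± 0.64 in Sema4B-/- (edgeR adjusted p = 0.707) and 1.74 ± 0.68 in Sema4B+/- libraries (edgeR adjusted p = 0.0389). The heterozygote call was lost without astrocyte library 2 or 6 or immune library 1 or 5 (edgeR adjusted p = 0.0774 to 0.133), and with no filter (0.0506).

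**Figure D2:**
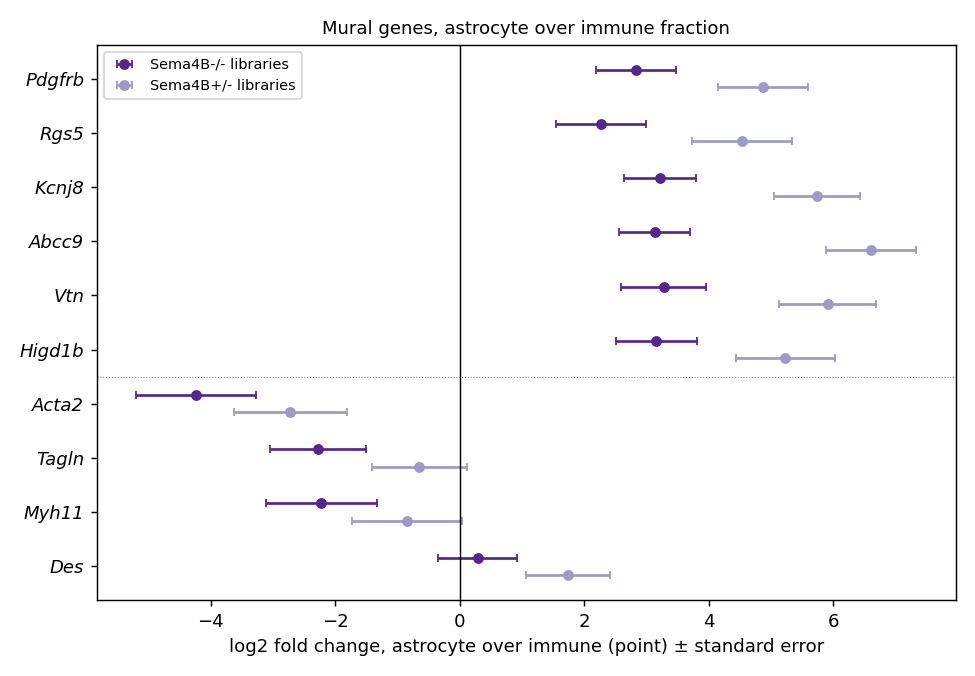
Log2 fold change of the astrocyte over the immune fraction for each gene, with its standard error, in Sema4B-/- and Sema4B+/- libraries. The 6 pericyte genes lie at 2.27 to 6.61, and Acta2, Tagln and Myh11 lie below 0.

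In Sema4B-/- libraries the fractions did not overlap for 6 members that were higher and 1 that was lower in the astrocyte fraction, against 31.8% and 31.9% of all genes. Among heterozygotes they did not overlap for 7 that were higher, against 33.6% of all genes. Both counts of higher members include Higd1b, which passed the filter through the astrocyte libraries. The size of the knockout differences depended on single libraries. Over 12 fits that each left out 1 library, it ran from 1.73 to 3.60 for Rgs5, 2.29 to 4.00 for Pdgfrb and 2.60 to 4.34 for Abcc9. Kcnj8 ran from 2.69 to 4.45, Vtn from 2.75 to 4.54, Higd1b from 2.59 to 5.16 and Acta2 from -4.78 to -2.97. Immune library 9 mattered most for the upper ends. Without library 9 the pericyte genes' log2 differences were 3.60 to 5.16, and that of Acta2 was -2.97 (edgeR adjusted p = 0.00851). A ratio within a library does not depend on scaling between libraries. Reads of Acta2 per read of Pdgfrb were 0.0133 to 0.0250 in astrocyte Sema4B-/- against 2.21 to 2.55 in immune Sema4B-/- libraries, and 0.0121 to 0.0248 in astrocyte Sema4B+/- against 1.21 to 4.39 in immune Sema4B+/- libraries. The 3 immune knockouts had ratios close to each other although their Acta2 levels spanned 22.8-fold. Within the immune fraction the heterozygous ratios enclosed the knockout ones.

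**Figure D3:**
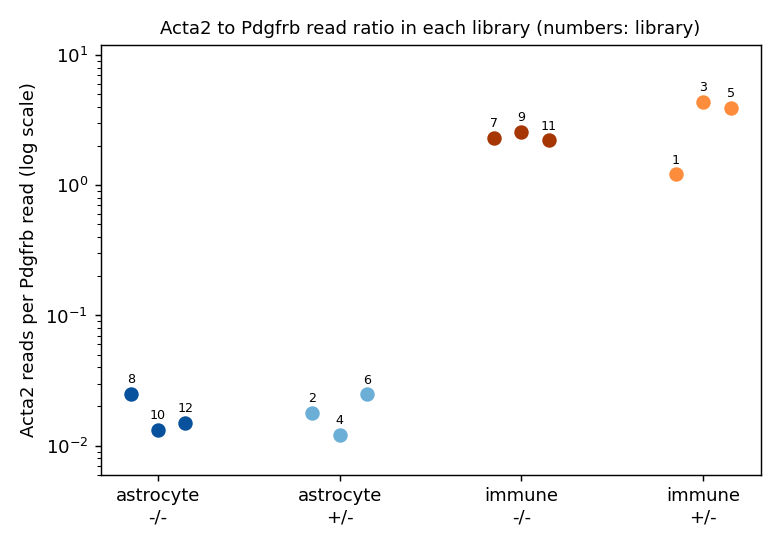
Acta2 reads per Pdgfrb read in each library, on a log axis, for the 4 groups. The 6 astrocyte libraries sit between 0.0121 and 0.0250, and the 6 immune libraries between 1.21 and 4.39.

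Levels of different genes were compared per kilobase of merged exon. In astrocyte Sema4B-/- libraries the mean order ran from Vtn at 182 CPM per kilobase through Rgs5 at 68.2, Pdgfrb at 27.4 and Kcnj8 at 13.9 down to Des at 2.75, Acta2 at 1.26, Myh11 at 0.599 and Tagln at 0.337. Higd1b at 7.75 ± 1.54 and Abcc9 at 6.39 ± 1.18 CPM per kilobase (SD, n = 3 each) were neighbours within their spread. The astrocyte Sema4B+/- order differed only in that pair, with Abcc9 at 10.3 ± 2.33 and Higd1b at 9.80 ± 3.76 CPM per kilobase. Acta2 led the immune order of means in both genotypes, at 23.9 ± 25.4 CPM per kilobase in Sema4B-/- and 12.5 ± 9.02 in Sema4B+/- libraries (SD, n = 3 each), followed by Vtn and Rgs5. In immune libraries 11 and 1 Vtn stood above Acta2. Neighbouring means among these 3 genes differed by less than 1 SD of the higher gene in both genotypes. Abcc9 came last there, at 0.739 CPM per kilobase in Sema4B-/- and 0.104 in Sema4B+/- libraries.

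Other genes of mural cells were read from lists that hold no member. These and the other lists used below were chosen with earlier results of these data known, so they are no separate check on the members. Of 17 other pericyte genes tested, 12 passed as higher and 0 as lower in the astrocyte fraction of Sema4B-/- libraries (median log2 difference 2.35), and 16 as higher and 0 as lower in Sema4B+/- libraries (3.77). Over all genes the medians were -0.07 and -0.04. Cox4i2, a cytochrome oxidase subunit gene used as a brain pericyte marker, had a log2 difference of 3.91 ± 0.47 in Sema4B-/- and 4.07 ± 0.50 in Sema4B+/- libraries. Pth1r, the parathyroid hormone receptor gene, had 3.49 ± 0.26 and 4.22 ± 0.28 in the same order. Other contractile genes were mixed: of 15 tested, 4 were higher and 6 lower in Sema4B-/-, and 6 higher and 3 lower in Sema4B+/- libraries. Cald1, the actin-binding caldesmon gene, was higher in the astrocyte fraction (1.95 ± 0.66 in Sema4B-/- and 3.77 ± 0.72 in Sema4B+/- libraries), while Srf, the gene of serum response factor, was lower (-1.08 ± 0.14 and -1.03 ± 0.14). Many cell types express Srf and Cald1.

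Markers of other vessel cells stood on the pericyte side, as did those of oligodendrocytes and astrocytes. Of 18 endothelial markers 16 were higher in the astrocyte fraction in Sema4B-/- and 17 in Sema4B+/- libraries, and of 10 fibroblast markers 9 and 10, with 0 of either list lower. Of 7 oligodendrocyte markers 7 were higher in both genotypes, and of 9 astrocyte markers 9. Neutrophil (7 of 7) and border macrophage markers (6 of 6) were lower in both, and microglia markers for 9 of 10 in Sema4B-/- and 10 in Sema4B+/- libraries. Neuron markers were lower for 6 and 3 of 9, and red blood cell markers passed in neither direction. The part of any of these cells in the mural values was not tested.

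Ligands and receptors between endothelium and mural cells fell on both sides. Of 19 tested, 9 passed as higher and 7 as lower for the knockouts, and 10 higher and 7 lower for the heterozygotes. Pdgfb, the ligand of the Pdgfrb receptor, averaged 20.5 ± 1.02 CPM in astrocyte Sema4B-/- and 199 ± 42.0 CPM in immune Sema4B-/- libraries (SD, n = 3 each). Its log2 difference was -3.27 ± 0.26 in Sema4B-/- (edgeR adjusted p = 2.13e-07) and -3.62 ± 0.27 in Sema4B+/- libraries (edgeR adjusted p = 7.96e-08). The ligand's transcript was lower in the astrocyte fraction, while the receptor's was higher. Pdgfd, another ligand of that receptor, was higher in the astrocyte fraction, with a log2 difference of 4.65 ± 0.46 in Sema4B-/- and 4.76 ± 0.47 in Sema4B+/- libraries.

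The genotype comparison asks whether the sorted fractions held a different share of mural RNA in Sema4B-/- than in Sema4B+/- libraries. In the astrocyte fraction all 10 genes had negative fold changes of Sema4B-/- over Sema4B+/-, from -0.83 to -0.18 on the log2 scale with a median of -0.45. Over all 15468 genes tested, 49.3% were negative. By edgeR 0 of the 10 passed, and 0% of all genes did. At an unadjusted p under 0.05, 3 members were lower, Pdgfrb, Abcc9 and Tagln, against 2.13% of all genes. Tagln had 6 to 13 reads in the knockouts and 15 to 18 in the heterozygotes. At the filter's count minimum of 10 it could enter the test through the heterozygotes, so it is no support for lower levels. The pericyte genes are not 6 separate observations, since their deviations from the group means ran together over the 6 libraries (median Pearson r 0.90 over 15 pairs), which also share depth. Pairs of a pericyte and a smooth muscle gene had a median r of 0.89 over 24 pairs, so the 10 genes are not separate observations either. Tagln did not run with the others, with r of -0.48 to 0.12 with the other 9 members.

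Pdgfrb had the lowest p of the members, at -0.59 ± 0.15 on the log2 scale (edgeR unadjusted p = 0.00383, adjusted p = 0.930). Its Sema4B-/- libraries at 115 to 179 CPM all lay below the Sema4B+/- libraries at 221 to 236 CPM, which differed from each other by only 1.07-fold. Tagln was the other gene with no overlap, at 0.436 to 0.864 CPM in Sema4B-/- against 1.10 to 1.44 CPM in Sema4B+/- libraries (log2 fold change -0.83 ± 0.36, edgeR adjusted p = 0.930). Those levels came from 6 to 13 reads against 15 to 18 reads, with the knockouts near the filter's minimum. Genes with all knockouts below all heterozygotes made up 4.89% of those tested. Abcc9 stood at -0.68 ± 0.19 (edgeR adjusted p = 0.930), with knockout library 8 at 63.8 CPM just above heterozygous library 4 at 63.4 CPM.

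The remaining members overlapped between genotypes in the astrocyte fraction. Kcnj8 had a log2 fold change of -0.46 ± 0.24, Rgs5 of -0.43 ± 0.28 and Vtn of -0.42 ± 0.26. Acta2, Higd1b, Myh11 and Des lay between -0.59 and -0.18, with standard errors of 0.29 to 0.42. Library 10 was the lowest of the 6 for 8 members, and without it Des stood at 0.0018 and the median of the 10 was -0.30. In the authors' deposited table Pdgfrb had a log2 fold change of -0.585 with p = 0.000874 and an adjusted p of 1. Abcc9 had -0.677 in the authors' deposited table, with p = 0.00151 and an adjusted p of 1. Tagln had -0.845 there, and its p in that table was 0.124, not under 0.05.

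Transcripts of several other cell types stood on the same side in the astrocyte fraction. Of 17 other pericyte genes 16 were negative (median log2 fold change -0.44), of 18 endothelial markers 15 (-0.22), and of 10 fibroblast markers 8 (-0.34). Red blood cell markers were negative for 5 of 5 (-0.72) and neutrophil markers for 5 of 5 tested (-0.49), while 8 of 9 astrocyte (0.10) and 9 of 10 microglia markers (0.17) were positive. By edgeR 0 genes of these lists passed. Notch3, the receptor gene needed for arterial smooth muscle identity, had 56.3 ± 10.3 CPM in Sema4B-/- and 78.8 ± 12.4 CPM in Sema4B+/- libraries (SD, n = 3 each). Summed endothelial markers (18 genes, none at 0) were 1077 to 1277 CPM in Sema4B-/- and 915 to 1665 CPM in Sema4B+/- libraries, which overlapped. Summed fibroblast markers (10 genes, none at 0) were 266 to 298 CPM in Sema4B-/- and 329.5 to 388 CPM in Sema4B+/- libraries, with no overlap. The mean log2 level of the pericyte members less that of endothelial markers was 1.15 to 1.78 in Sema4B-/- and 1.36 to 2.63 in Sema4B+/- libraries. The part of these cells' RNA in the mural values was not tested.

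In the immune fraction the mural genes stood on the opposite side, but the knockouts disagreed among themselves. All 9 members tested had positive fold changes of Sema4B-/- over Sema4B+/-, with a median of 1.49 on the log2 scale, against 49.6% positive among all 15648 genes. Higd1b was too low to be tested. By edgeR 0 of 9 passed, and 0% of all genes did. At an unadjusted p under 0.05, Abcc9, Vtn and Kcnj8 were higher, against 9.69% of all genes. Without library 9 that count was 1, Abcc9 (edgeR unadjusted p = 0.0259). For 0 members did the knockouts lie wholly above the heterozygotes, against 9.29% of all genes.

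Library 9 was the highest of the 6 immune libraries for all 10 genes, library 11, also a knockout, was the lowest for 9, and Tagln was lowest in heterozygous library 1. Between the highest and the lowest immune library the 9 genes other than Higd1b differed by 11.8-fold to 33.0-fold, compared with 1.98-fold to 3.83-fold over the 6 astrocyte libraries. Higd1b had 1 read in library 11, too few for a fold. The share of all reads in the 10 genes was 0.0180, 0.0506 and 0.00275% in knockout libraries 7, 9 and 11, against 0.00289, 0.0126 and 0.00936% in heterozygous libraries 1, 3 and 5. Deviations of the genes ran together, with a median Pearson r of 0.96 over 15 pericyte pairs and 0.95 over 6 smooth muscle pairs, from 6 libraries that also share depth.

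Abcc9 stood at 2.85 ± 0.82 on the log2 scale (edgeR unadjusted p = 0.00641, adjusted p = 0.227). Knockout libraries 7 and 9 held 76 and 192 reads, and knockout library 11 held 14, close to the 10 to 12 reads of the heterozygotes. Abcc9 passed in the authors' deposited table, with a log2 fold change of 2.88 and an adjusted p of 0.0287, where 0.896% of genes were under 0.05. It also passed by DESeq2 (2.88, adjusted p = 0.0167), with 3.24% of genes called. Its edgeR log2 fold change was 1.66 without library 9 (adjusted p = 0.245) and 3.04 without library 7 (adjusted p = 0.403).

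Vtn stood at 2.25 ± 0.77 on the log2 scale (edgeR adjusted p = 0.261), Kcnj8 at 2.12 ± 0.80 (0.279), Rgs5 at 1.86 ± 0.83 (0.343) and Pdgfrb at 1.49 ± 0.78 (0.393). For each of these, libraries 7 and 9 lay above all heterozygotes and library 11 lay below them all. Acta2 stood at 0.95 ± 0.94, Myh11 at 1.07 ± 1.01, Tagln at 0.81 ± 0.83 and Des at 1.30 ± 0.77 (edgeR adjusted p = 0.446 to 0.643). For Acta2, Tagln and Des, heterozygous library 3 stood above knockout library 7, so only library 9 exceeded all heterozygotes. Without library 9 the fold changes of Acta2, Tagln and Myh11 turned to -0.31, -0.36 and -0.018, while Des stood at 0.18 and the 5 pericyte genes tested at 0.34 to 1.66.

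**Figure D4:**
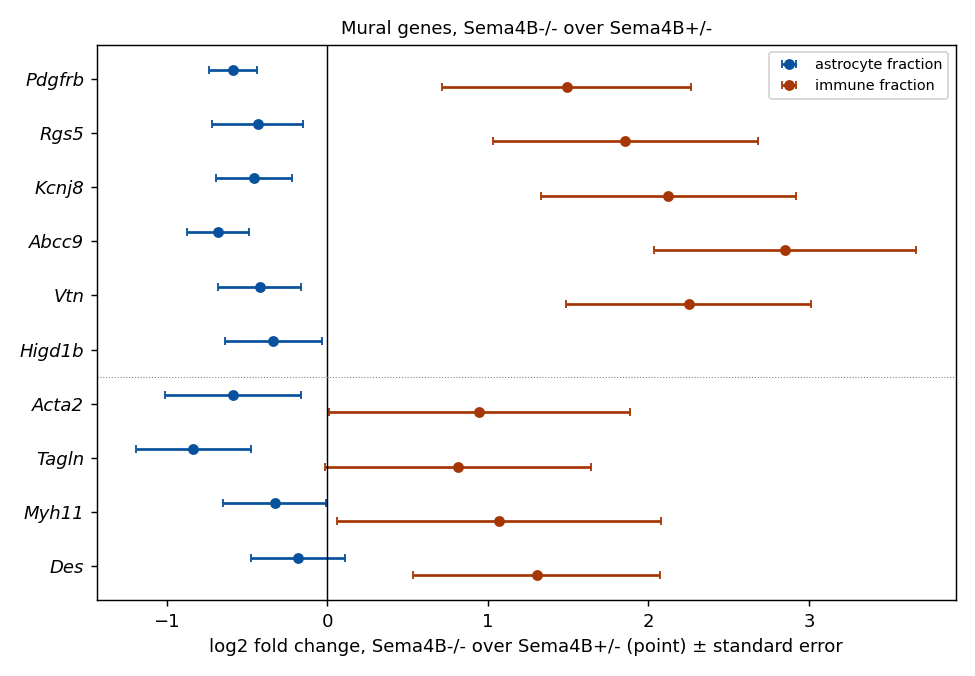
Log2 fold change of Sema4B-/- over Sema4B+/- for each gene, with its standard error, in the astrocyte and the immune fraction. All astrocyte values lie between -0.83 and -0.18 and all immune values between 0.81 and 2.85; Higd1b was not tested in the immune fraction.

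Other marker lists showed how the same libraries stood. Summed endothelial markers had 366, 513 and 183 CPM in knockout libraries 7, 9 and 11, against 311 to 384 CPM in heterozygotes. Summed fibroblast markers had 20.5, 42.2 and 11.2 CPM in those knockouts, against 9.65 to 18.8 CPM in heterozygotes. Library 9 was thus the highest and library 11 the lowest for endothelial markers, as for the mural genes. Summed microglia markers were lowest in library 11, at 8496 CPM, and neuron markers highest there, at 6412 CPM. The mean log2 level of pericyte members less that of endothelial markers was 0.39, 1.06 and -0.40 in knockout libraries 7, 9 and 11, against -0.59 to -0.13 in heterozygotes. Positive fold changes were found for 12 of 14 other pericyte genes (median 1.15), 13 of 14 other contractile genes (0.58) and 15 of 16 endothelial markers (0.80). Other positive values came from 8 of 8 fibroblast (0.53), 9 of 9 neuron (0.58), 9 of 9 astrocyte (0.34) and 7 of 7 oligodendrocyte markers (0.30). Negative fold changes were found for 10 of 10 microglia (-0.51), 7 of 7 neutrophil (-0.83), 6 of 6 border macrophage (-0.62) and 5 of 5 red blood cell markers (-0.15). By edgeR 0 genes of these lists passed. The part of other cells in the mural values was not tested.

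**Figure D5:**
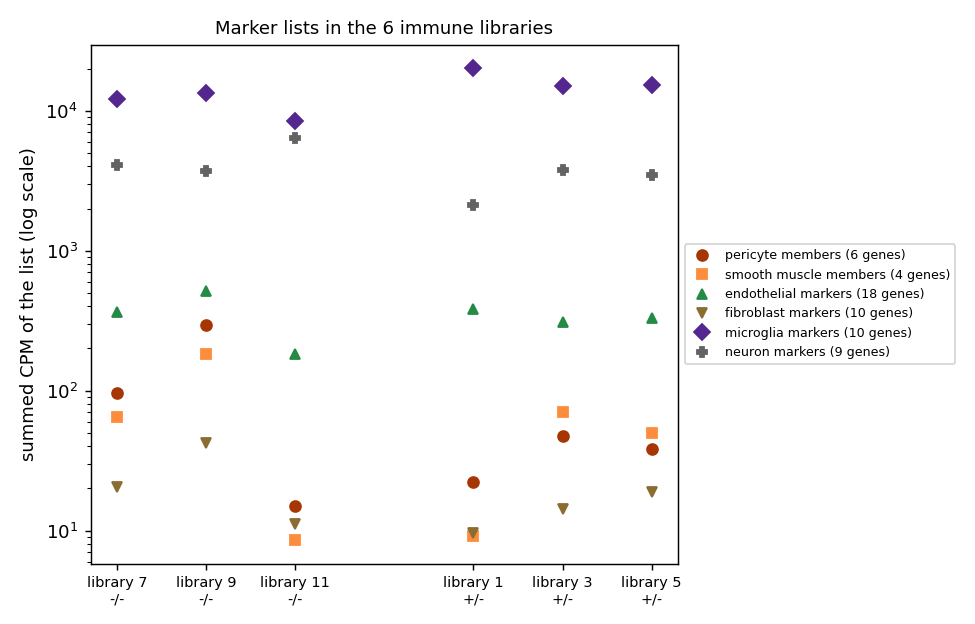
Summed CPM, on a log axis, of gene lists in the 6 immune libraries, with Sema4B-/- before Sema4B+/- libraries. Library 9 has 513 CPM of endothelial markers and library 11 has 183 CPM.

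A fit of all 12 libraries tested whether the genotype effect differed between the fractions, using the same libraries as the comparisons above. The difference, the astrocyte less the immune effect, was negative for all 10 genes, with a median of -2.06 on the log2 scale, against 46.5% negative among all genes. The 10 include Higd1b, which was too low to be tested within the immune fraction. It held 1 to 28 reads in immune knockouts and 2 to 4 in immune heterozygotes, so its difference has no usable immune part. By edgeR 0 members passed, and 0% of all genes did. At an unadjusted p under 0.05, 5 had a negative difference (Pdgfrb, Rgs5, Kcnj8, Abcc9 and Vtn), against 6.32% of all genes. Abcc9 had the lowest p, with a difference of -3.48 ± 0.90 (edgeR adjusted p = 0.475), beside Vtn at -2.64 ± 0.92 and Kcnj8 at -2.53 ± 0.88. Without immune library 9 all 10 were negative, with a median of -0.66, and 1 had an unadjusted p under 0.05, Abcc9 (edgeR unadjusted p = 0.00393). Higd1b stood at -0.08 in that fit.

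Genes most like the members were ranked by Pearson r of their deviations from the group means with the mean deviation of the pericyte or the smooth muscle members, over 12 libraries and 12022 genes. Nearest to the pericyte genes were Enpep, a pericyte aminopeptidase gene, with an r of 0.99, the basement membrane gene Nid1 (0.99), the collagen chaperone gene Serpinh1 (0.99), the chloride channel gene Ano1 (0.99) and Afap1l2 (0.98). Nearest to the smooth muscle genes were the myosin light chain gene Myl9 (0.99), Kirrel (0.99), Notch3 (0.98), Bcam (0.98) and Phldb2 (0.98). These values are descriptions with no test, and the libraries share depth. In the 6 astrocyte libraries alone the nearest included Pycard, Fjx1, Dgka, Ehd4 and Ctnnd1 for the pericyte and Gins4, Alad, Iqgap1 and Eif4e3 for the smooth muscle genes (r 0.992 to 0.996). In the 6 immune libraries alone they were Hs3st3b1, Arhgap29, Scd1, Serpinh1 and C2cd2 for the pericyte and Myl9, Bcam, Slc25a18, Mcam and Notch3 for the smooth muscle genes (r 0.991 to 0.997).

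Near-identical copies were looked for, since reads from them can be miscounted. Of all runs of 50 bases in the annotated transcripts, 0.326% for Acta2 also occur in Actg1 or actin pseudogenes, 0.340% for Myh11 in Myh9 or Myh10, and 0.614% for Abcc9 in other genes, while the other 7 members shared 0. Abcc9 and Des also overlap antisense genes that were not analysed here. Read length is not given in the sources used here. Myh9 and Actb, the nonmuscle myosin and actin genes, were lower in the astrocyte fraction, with log2 differences of -1.56 ± 0.23 and -1.22 ± 0.21 in Sema4B-/- libraries. Myh14, another nonmuscle myosin gene, was higher, at 3.06 ± 0.28.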

How the data were processed

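Per the submitters' processing notes, reads were handled with cutadapt, STAR, HTSeq and DESeq2 on GRCm38, without versions. Per the file headers, the deposited tables, 1 per fraction, hold raw counts per gene. They also hold the authors' log2 fold change (knockout over heterozygote). Each gene's p-value, raw and adjusted, was deposited with it. The 12 normalized columns were not used. Column and title numbers differ, so libraries were placed in groups by the genotype and fraction in the column head and named by its number. Genotypes were compared within a fraction, and fractions in a fit of all 12 libraries, by edgeR 4.0.16 (R 4.3.3). Settings were TMM, filterByExpr at a count minimum of 10 and a total minimum of 15, and robust two-sided quasi-likelihood F tests. Benjamini-Hochberg adjustment covered every gene tested, with a threshold of 0.05. Mean log2 levels used CPM + 0.5. A standard error is the fold change over the root of F. Alternatives were RLE scaling, no filter, DESeq2 1.42.0, limma-voom 3.58.1, other sets of libraries, a block of adjacent column numbers and leaving out each library. The scripts were tested on simulated data. Members and lists were chosen with earlier results of these data known. From each other list, genes of at least 5 CPM with the lowest p could be named, up to 3 per direction, or 2 where none passed. Exon lengths, positions and transcripts came from GENCODE M21. No replicates were copies: the mean chi-square per gene within groups was 10.9 to 79.9. Read counts limit the precision of low genes. 1 gene near the members in the ranking by likeness is not reported here.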

Additional observations from a re-analysis of the deposited data

How the results depend on the processing

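The labels give the groups no shared replicate numbers, but column numbers alternate between fractions (immune 1, astrocyte 2 and so on). Deviations of adjacent heterozygous libraries correlated at 0.25, 0.39 and 0.28. Their highest r with another immune library was 0.05, -0.18 and 0.009, so adjacent ones were the most alike. Adjacent knockout libraries had r of 0.13, -0.47 and -0.03, each below the highest with another immune library (0.49, 0.34 and 0.17). The genotypes disagreed, so the numbers were not taken as pairs. A fit with adjacent numbers as a block, chosen after seeing the data, called 2 members lower in knockout fractions (Myh11 lost its call, at -1.46 with adjusted p = 0.239), changed no other call of a member, and called 0 genes for the difference between fractions. No such block fits within a fraction, where each number occurs once. Among all genes, DESeq2 called 399 for genotype in the immune libraries, 1 in the astrocyte libraries and 3 for the difference between them, where edgeR called 0 each time and had 2284, 593 and 1753 genes at an unadjusted p under 0.05. Among members, DESeq2 called 1 higher in immune knockouts, Abcc9. Between fractions, limma-voom called 0 members lower in heterozygotes and 1 in knockouts, where edgeR called 1 and 3. Leaving out 1 library gave 0 to 1 lower in heterozygotes (0 without astrocyte library 2 or 4 or immune library 3) and 1 to 3 in knockouts (1 without astrocyte library 8 or 12 or immune library 9). Reversals came only from leaving out a library. They were Acta2 at -0.31, Tagln at -0.36 and Myh11 at -0.018 for immune genotype without library 9, Des at 0.0018 for astrocyte genotype without library 10, and Des between knockout fractions at -0.015 without library 8 and -0.21 without library 11. RLE scaling changed no direction and no call of a member. With 3 libraries a group, and under 20 reads of Abcc9, Kcnj8 and Higd1b in each immune heterozygote, depth limits those genes.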
